A study of Danio rerio with 48 samples.

Results

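The 8 genes described here encode transcription factors of liver and gut development in zebrafish: foxa1, foxa2, foxa3, hnf1ba, hnf1bb, onecut1, hhex and prox1a. They were chosen by gene symbol, and 8 of 8 were found among the 36109 genes of the count table. All 8 also passed the filter on low counts, with 26268 genes tested in all. Bulk RNA sequencing was done on wild type zebrafish with no treatment named in the labels, at 6, 10, 26 and 48 hours post fertilization (hpf). At each age there were 4 libraries of whole embryo and 4 of yolk tissue, which gave 8 groups and 32 libraries. The labels do not say how yolk was separated, how many embryos were pooled, or whether the 4 libraries of a group came from separate clutches. The p-values therefore measure the spread between these libraries, which may be technical.

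FoxA proteins are forkhead factors that bind closed chromatin and open it for other factors in the endoderm, the germ layer of gut, liver and pancreas. The paralogs hnf1ba and hnf1bb encode homeodomain factors of the zebrafish hindbrain, kidney and endodermal organs. Onecut1, also named Hnf6, acts in liver and bile duct formation in the mouse, while Hhex and Prox1 are homeodomain factors of the early liver bud. In fish the yolk cell is lined by a nucleated syncytial layer that handles yolk lipid and secretes plasma proteins before a liver exists, and whole embryos contain that layer too.

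Library totals ran from 32302472 to 39765045 counts. Levels are CPM, counts relative to the library total, scaled by TMM, a factor that sets most genes equal between libraries, and a gene was called at an adjusted p below 0.05 in the edgeR quasi-likelihood fit of all 32 libraries. Of 9 syncytial layer markers 9, 8, 7 and 8 were higher in yolk than in whole embryo at 6, 10, 26 and 48 hpf and none were lower. Of all genes 20.6% to 24.8% were higher and 25.3% to 29.9% lower. The markers were chosen with earlier results of these data known, so these counts cannot test the yolk label. Replicate 1 of yolk at 26 hpf stood apart: its 10 notochord and floor plate markers summed to 1010 CPM against 28.8 to 40.2 in the other 3 libraries, and its 10 skeletal muscle markers to 3170 against 81.8 to 155. In replicate 2 of yolk at 6 hpf the 8 epidermal markers summed to 2000 CPM, against 209, 180 and 333 in replicates 1, 3 and 4. The part of embryonic tissue in that library was not tested. Without a scaling factor (library totals alone) the median log2 difference of all genes between yolk and whole embryo shifted by -0.37, -0.874, -1.06 and -0.61 at the 4 ages, so the tissue differences below are relative to that choice. In bulk samples, fewer cells of a type and less RNA per cell cannot be told apart.

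Relative levels of foxa3 and hhex were higher in yolk than in whole embryo at every age, and that of onecut1 at 6 and 10 hpf. The level of hnf1ba was also called higher at every age, but at 26 hpf the tissues overlapped and library totals alone turned the sign. The other FoxA genes began low in yolk: foxa1 and foxa2 were below whole embryo at 6 hpf and above it at 48 hpf. At 6 hpf, 5 of the 8 members were higher in yolk, where 24.8% of all genes tested were, and 2 were lower, against 27.4%. The 5 were foxa3, hnf1ba, hnf1bb, onecut1 and hhex, and the 2 were foxa1 and foxa2. At 10 hpf, 6 were higher against 24.5% of all genes, and hnf1bb alone was lower against 29.9%. At 26 hpf, 3 were higher, namely foxa3, hnf1ba and hhex, against 20.6% of all genes. Only prox1a was lower there, against 25.3%, and under library totals alone 5 members were. At 48 hpf, 6 were higher against 22.8% of all genes, and 0 were lower against 27.5%. That count of 0 holds in the edgeR fit: onecut1 and prox1a had fitted differences below 0, prox1a had an unadjusted p of 0.031, and the DESeq2 Wald test called 1 member lower and library totals alone 2.

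**Figure D1:**
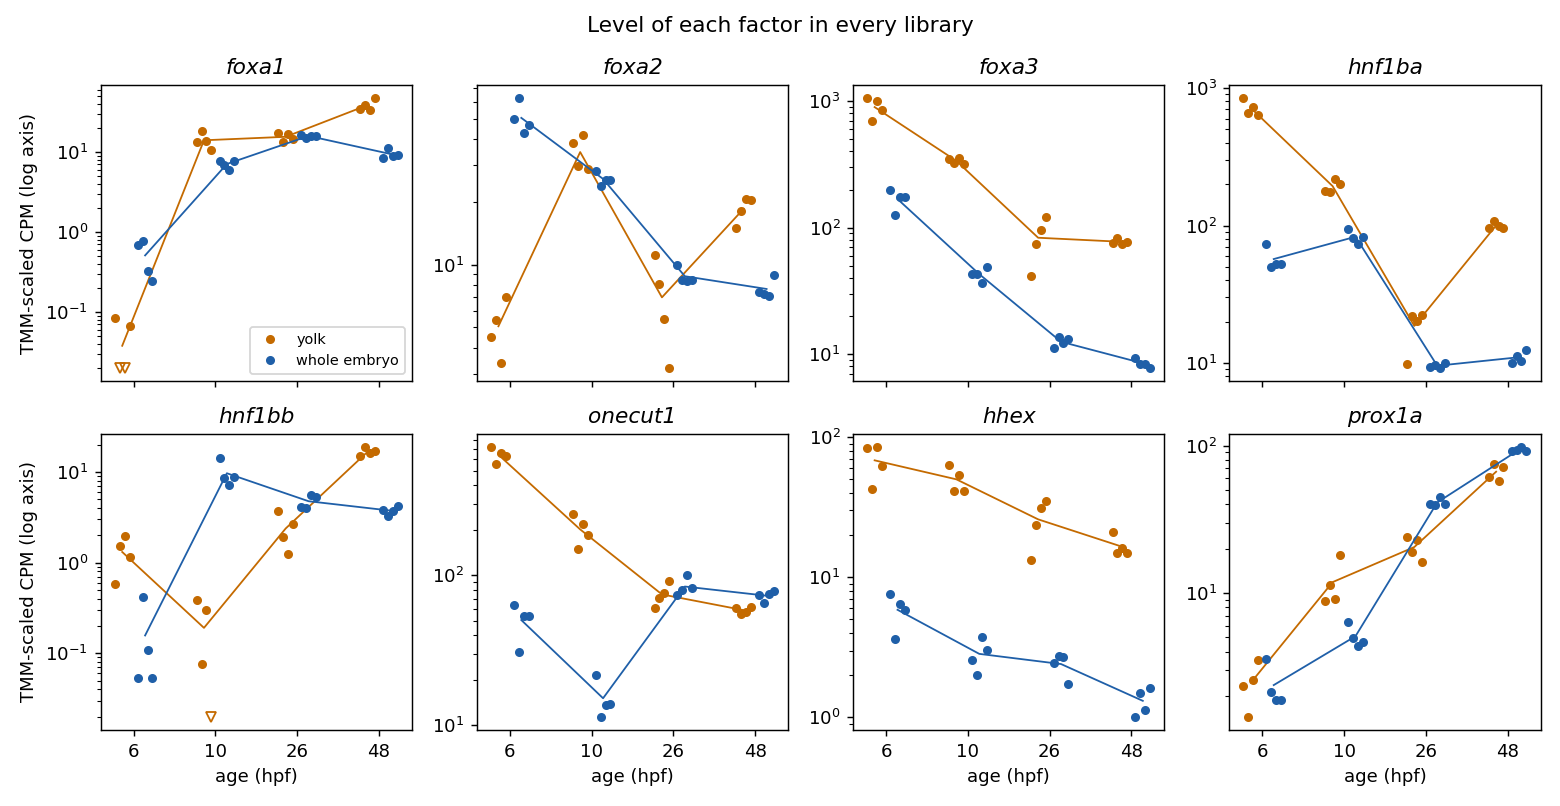
TMM-scaled CPM (log axis) of each of the 8 factors by age, with 1 point per library and lines through the group means, yolk in orange and whole embryo in blue. Open triangles, drawn at 0.02, are libraries with 0 counts. The yolk points of foxa3 and hhex lie above those of whole embryo at all 4 ages, while those of foxa1, foxa2 and hnf1bb change sides.

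Among the FoxA genes, foxa3 was the one that stayed higher in yolk. Its yolk libraries read 1050, 695, 996 and 845 CPM at 6 hpf, 348, 326, 355 and 318 at 10 hpf, 41.4, 73.7, 96.5 and 121 at 26 hpf and 75.3, 83.4, 74.4 and 76.3 at 48 hpf. Whole embryo read 197, 125, 176 and 175 CPM at 6 hpf and 9.35, 8.42, 8.33 and 7.77 at 48 hpf. No yolk library overlapped the whole embryos of its age. The yolk level was 5.33-fold higher at 6 hpf (897 ± 160 against 168 ± 30.6 CPM, SD, n = 4), 7.86-fold at 10 hpf, 6.63-fold at 26 hpf and 9.13-fold at 48 hpf (log2 difference 3.19, SE 0.209, adjusted p = 5.4e-13). In both tissues foxa3 fell from 6 to 10 hpf, 2.66-fold in yolk and 3.92-fold in whole embryo, and again to 26 hpf, 4.05-fold and 3.42-fold. Its yolk change of -0.10 from 26 to 48 hpf was not called.

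At 6 hpf foxa1 was almost undetected in yolk. The 4 yolk libraries held 2, 0, 0 and 2 counts, against 26, 30, 12 and 9 in whole embryo. By 10 hpf yolk read 13.4, 18, 13.8 and 10.6 CPM and whole embryo 7.69, 6.95, 5.92 and 7.67. The groups did not overlap at either age, and yolk passed from below whole embryo to above it. The fitted yolk difference was -3.69 at 6 hpf (SE 0.48, adjusted p = 1.4e-07) and 0.98 at 10 hpf (SE 0.258, adjusted p = 0.0018), the latter 0.101 and not called under library totals alone. At 26 hpf the tissues overlapped, with 15.4 ± 1.82 CPM in yolk and 15.8 ± 0.617 in whole embryo. At 48 hpf yolk read 34, 39, 33.7 and 46.5 CPM and whole embryo 8.38, 11.1, 8.95 and 9.21, a 4.08-fold difference (adjusted p = 2.5e-07). That age held the highest foxa1 level of all 8 groups.

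The third FoxA gene, foxa2, is also a gene of the floor plate and the axial midline. In yolk it read 4.52, 5.4, 3.37 and 6.98 CPM at 6 hpf, 38.1, 29.6, 41.7 and 28.8 at 10 hpf, 11.1, 8.05, 5.52 and 3.2 at 26 hpf and 14.9, 18.1, 20.7 and 20.3 at 48 hpf. Whole embryo instead went down with age, from 50, 62.4, 42.4 and 46.6 CPM at 6 hpf to 7.39, 7.23, 7.05 and 8.9 at 48 hpf. Yolk was thus low, high, low and high again while whole embryo kept falling to 26 hpf. The yolk level was 9.92-fold lower at 6 hpf (log2 difference -3.31, SE 0.259, adjusted p = 6.4e-12) and 2.42-fold higher at 48 hpf (adjusted p = 5.9e-05). At 10 hpf the log2 difference of 0.43 (adjusted p = 0.13) was not called, although the groups did not overlap, and under library totals alone it was -0.457. At 48 hpf it was 0.668 and not called under library totals alone.

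The change of foxa1 and foxa2 between 6 and 10 hpf differed between the tissues. In yolk foxa2 rose 6.81-fold (adjusted p = 2.3e-10), whereas in whole embryo it fell 1.96-fold (adjusted p = 0.0014, not called under library totals alone). The difference between these changes was 3.74 on the log2 scale (SE 0.346, adjusted p = 1.8e-09). For foxa1 the rise was larger in yolk by 4.67 (SE 0.547, adjusted p = 1.3e-07), a size that rests on the 4 counts of yolk at 6 hpf. Both rose again in yolk from 26 to 48 hpf, foxa1 2.48-fold and foxa2 2.63-fold, and the changes exceeded those in whole embryo by 2.06 (SE 0.363) and 1.60 (SE 0.338).

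The paralogs hnf1ba and hnf1bb took different courses. In yolk hnf1ba read 841, 660, 727 and 636 CPM at 6 hpf, 179, 174, 219 and 202 at 10 hpf, 9.86, 22, 20.1 and 22.4 at 26 hpf and 96.6, 108, 100 and 95.7 at 48 hpf. In whole embryo it read 73.1, 49.5, 52.9 and 52.5 CPM at 6 hpf, 94.9, 80.5, 73.1 and 82.9 at 10 hpf, 9.34, 9.65, 9.19 and 9.98 at 26 hpf and 9.92, 11.2, 10.4 and 12.5 at 48 hpf. Yolk was above whole embryo without overlap at 6, 10 and 48 hpf, and at 26 hpf replicate 1 of yolk lay among the whole embryos. The yolk level was 12.6-fold higher at 6 hpf (log2 difference 3.65, SE 0.184, adjusted p = 9.8e-16), 2.33-fold at 10 hpf, 1.94-fold at 26 hpf and 9.1-fold at 48 hpf (adjusted p = 3.9e-14). Under library totals alone the 26 hpf difference was -0.197 and not called. Yolk hnf1ba fell 3.7-fold from 6 to 10 hpf and 10.4-fold to 26 hpf, then rose 5.4-fold to 48 hpf (log2 change 2.43, SE 0.176, adjusted p = 3e-11).

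Its paralog hnf1bb was sparse at 6 hpf, with 14, 44, 54 and 34 counts in the yolk libraries and 2, 16, 4 and 2 in whole embryo. At 10 hpf the yolk libraries held 10, 2, 8 and 0 counts, while whole embryo read 14.1, 8.66, 7.14 and 8.71 CPM. At 26 hpf yolk read 3.71, 1.91, 1.24 and 2.66 CPM and whole embryo 4.05, 4.02, 5.59 and 5.32. Yolk was above whole embryo at 6 hpf and below it at both later ages, without overlap. The 26 hpf difference of -0.99 was not called in the edgeR fit (adjusted p = 0.085), though it was with the DESeq2 Wald test. The yolk level was 8.13-fold higher at 6 hpf (log2 difference 3.02, SE 0.562, adjusted p = 3.9e-05) and 49.7-fold lower at 10 hpf (log2 difference -5.64, SE 0.597, adjusted p = 3.1e-09), the latter resting on 20 yolk counts in all. Whole embryo replicate 2 held 16 of the 24 whole embryo counts at 6 hpf, and without it the yolk level there was 17.5-fold higher (log2 difference 4.13). At 48 hpf yolk read 14.9, 18.7, 16.1 and 16.8 CPM against 3.84, 3.23, 3.72 and 4.17, a 4.44-fold difference (adjusted p = 0.00038). The counts of hnf1bb were even in 32 of 32 libraries, so 1 count may not be 1 fragment, and counting error may be larger than the counts imply.

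Between 6 and 10 hpf hnf1bb rose in whole embryo (59.6-fold, adjusted p = 3.6e-09) and fell in yolk (6.78-fold, adjusted p = 0.00018). The difference of these changes was -8.66 (SE 0.815, adjusted p = 2.5e-09). Without whole embryo replicate 2 of 6 hpf the rise was 129-fold and the difference -9.77. For hnf1ba the signs were the same way round, with a rise of 1.45-fold in whole embryo and a fall in yolk, and the difference was -2.43 (SE 0.238). From 10 to 26 hpf the order turned: hnf1bb rose 12.3-fold in yolk, whereas its change of -1.02 in whole embryo was not called (adjusted p = 0.059). The size of that yolk rise rests on 20 counts in all at 10 hpf and 252 at 26 hpf. Of the 252, replicate 1, the library with high notochord and muscle markers, held 128. Both paralogs then rose in yolk from 26 to 48 hpf, hnf1bb 6.94-fold, and neither was called in whole embryo. The yolk change exceeded that in whole embryo by 2.23 for hnf1ba (SE 0.24, adjusted p = 1.3e-07) and by 3.14 for hnf1bb (SE 0.664, adjusted p = 0.00093).

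The level of onecut1 began high in yolk and came down to the level of the whole embryo. Its yolk libraries read 717, 554, 656 and 627 CPM at 6 hpf, 255, 149, 221 and 186 at 10 hpf, 60.5, 70.6, 76.5 and 91.2 at 26 hpf and 61, 55.1, 56.7 and 61.7 at 48 hpf. Whole embryo read 63.2, 30.9, 53.5 and 53.9 CPM at 6 hpf, 21.7, 11.4, 13.7 and 13.8 at 10 hpf, 74.2, 80.3, 100 and 82.7 at 26 hpf and 73.7, 65.9, 74.6 and 78.6 at 48 hpf. Yolk was far above whole embryo at 6 and 10 hpf, overlapped it at 26 hpf and lay just below it at 48 hpf. The yolk level was 12.7-fold higher at 6 hpf (log2 difference 3.66, SE 0.208, adjusted p = 8.7e-15) and 13.4-fold at 10 hpf (SE 0.209, adjusted p = 1.2e-14). At 26 and 48 hpf the differences of -0.18 and -0.32 were not called (adjusted p = 0.46 and 0.16), and under library totals alone both were, at -1.3 and -0.937. From 10 to 26 hpf onecut1 fell 2.72-fold in yolk and rose 5.57-fold in whole embryo, a difference of -3.92 (SE 0.274, adjusted p = 1.1e-11).

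The liver bud factor hhex kept its yolk excess throughout. Yolk libraries read 83.1, 42.8, 84.9 and 62.8 CPM at 6 hpf, 63.7, 41.3, 53.8 and 41.4 at 10 hpf, 13.3, 23.8, 31.3 and 35.3 at 26 hpf and 21, 14.9, 16.1 and 14.9 at 48 hpf. The whole embryos ranged from 3.65 to 7.56 CPM at 6 hpf and from 1.01 to 1.63 at 48 hpf. At each age the lowest yolk library was above the highest whole embryo. The yolk level was 11.7-fold higher at 6 hpf, 17.6-fold at 10 hpf, 10.8-fold at 26 hpf and 12.7-fold at 48 hpf (log2 difference 3.66, SE 0.297, adjusted p = 4.2e-11). None of the 3 changes between ages was called as different between the tissues (adjusted p = 0.27, 0.17 and 0.72). Under library totals alone the change from 10 to 26 hpf was, with a larger fall in yolk (-1.01, adjusted p = 0.025).

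By contrast prox1a rose at every step in both tissues. In yolk it read 2.34, 1.45, 2.56 and 3.52 CPM at 6 hpf, 8.85, 11.4, 9.1 and 18.1 at 10 hpf, 24.1, 18.9, 22.9 and 16.2 at 26 hpf and 61.7, 74.7, 57.8 and 71.8 at 48 hpf. In whole embryo it read 3.58, 2.15, 1.89 and 1.89 CPM at 6 hpf, 6.33, 4.97, 4.4 and 4.69 at 10 hpf, 40.2, 39.6, 44.7 and 40.1 at 26 hpf and 92.2, 92.8, 97.5 and 91.9 at 48 hpf. The tissues overlapped at 6 hpf, yolk was above at 10 hpf, and whole embryo was above at 26 and 48 hpf. Yolk was 2.32-fold higher at 10 hpf (adjusted p = 3.2e-05, not called under library totals alone) and 2-fold lower at 26 hpf (SE 0.22 on the log2 scale, adjusted p = 0.00048). At 48 hpf the difference of -0.49 was not called (adjusted p = 0.059), though it was with the DESeq2 Wald test. Its rise from 10 to 26 hpf was smaller in yolk than in whole embryo by 2.22 (SE 0.314, adjusted p = 3.2e-06). Prox1a is also expressed in lens, muscle and neurons. At 26 hpf 5 of 8 lens, 6 of 10 muscle and 9 of 10 neural markers were lower in yolk, where 25.3% of all genes were, and 1, 1 and 0 were higher. At 48 hpf 8, 7 and 10 were lower, where 27.5% of all genes were, and 0 were higher. The part of those tissues in the prox1a levels was not tested.

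**Figure D2:**
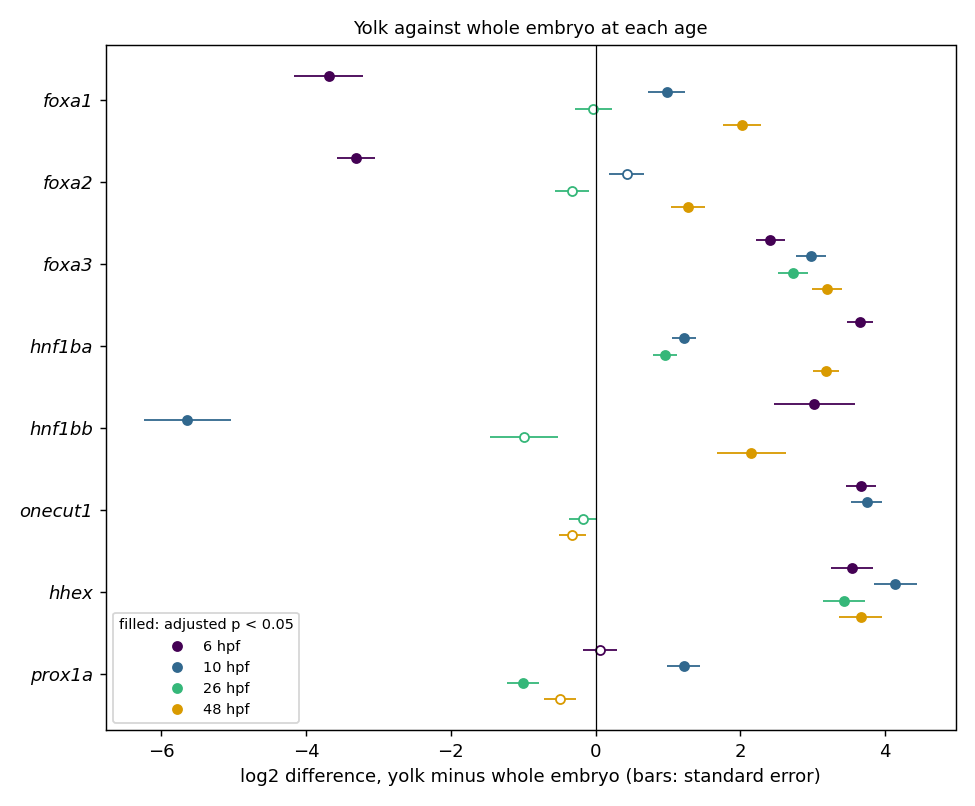
Log2 difference of yolk minus whole embryo for each factor at 6, 10, 26 and 48 hpf, from the edgeR fit, with bars of 1 standard error (4 libraries per group). Filled points have an adjusted p below 0.05. Points of foxa3 and hhex stay between 2.42 and 4.14, while hnf1bb runs from -5.64 at 10 hpf to 3.02 at 6 hpf.

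Taken by age step, from 6 to 10 hpf 3 members rose in yolk (foxa1, foxa2 and prox1a), where 25.8% of all genes rose, and 4 fell (foxa3, hnf1ba, hnf1bb and onecut1), against 23.4%. From 10 to 26 hpf 2 rose, namely hnf1bb and prox1a, against 33.3% of all genes, and 5 fell, against 23.1%. The 5 were foxa2, foxa3, hnf1ba, onecut1 and hhex. In the step from 26 to 48 hpf 5 rose (foxa1, foxa2, hnf1ba, hnf1bb and prox1a), against 12% of all genes. None fell by the edgeR test, against 16.1% of all genes, with hhex at an unadjusted p of 0.023 and 1 member called lower by the DESeq2 Wald test. In that last step foxa3, onecut1 and hhex were not called, at -0.10, -0.35 and -0.63. Under library totals alone foxa3 was instead called as rising, at 0.391, and onecut1 was at 0.0713.

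In whole embryo 4 members rose from 6 to 10 hpf (foxa1, hnf1ba, hnf1bb and prox1a), against 21.2% of all genes, and the other 4 fell, against 20%. From 10 to 26 hpf foxa1, onecut1 and prox1a rose, 3 members against 30% of all genes, and foxa2, foxa3 and hnf1ba fell, 3 against 26%. From 26 to 48 hpf prox1a rose, 1 member against 12.5% of all genes, and 3 fell (foxa1, foxa3 and hhex, adjusted p = 0.034, 0.036 and 0.025), against 9.83%. Those 3 falls were near the threshold. Leaving out single libraries left 0 to 2 of them, and the call of foxa1 was lost for 7 of 8 libraries, that of foxa3 for 6 and that of hhex for 5.

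Tested as differences of these steps, the 6 to 10 hpf change was higher in yolk for 3 members, against 13.8% of all genes, and lower for 2, against 13%. The 3 were foxa1, foxa2 and prox1a, the last not called under library totals alone (0.676). From 10 to 26 hpf it was higher for hnf1bb, 1 member against 17.1% of all genes, and lower for 3 (foxa1, onecut1 and prox1a), against 12.3%. The difference for foxa1 was -1.02 (adjusted p = 0.034), and that call was lost when any of 7 of the 16 libraries was left out. From 26 to 48 hpf it was higher for 4 (foxa1, foxa2, hnf1ba and hnf1bb), against 9.29% of all genes, and lower for none, against 13.2%. With library totals alone foxa3 was called higher too (1.05, adjusted p = 0.00043), as it was without yolk replicate 4 of 26 hpf (0.698, adjusted p = 0.046). In that last test onecut1 alone had a difference below 0 (-0.14, unadjusted p = 0.59), and the DESeq2 Wald test called 0 members lower.

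**Figure D3:**
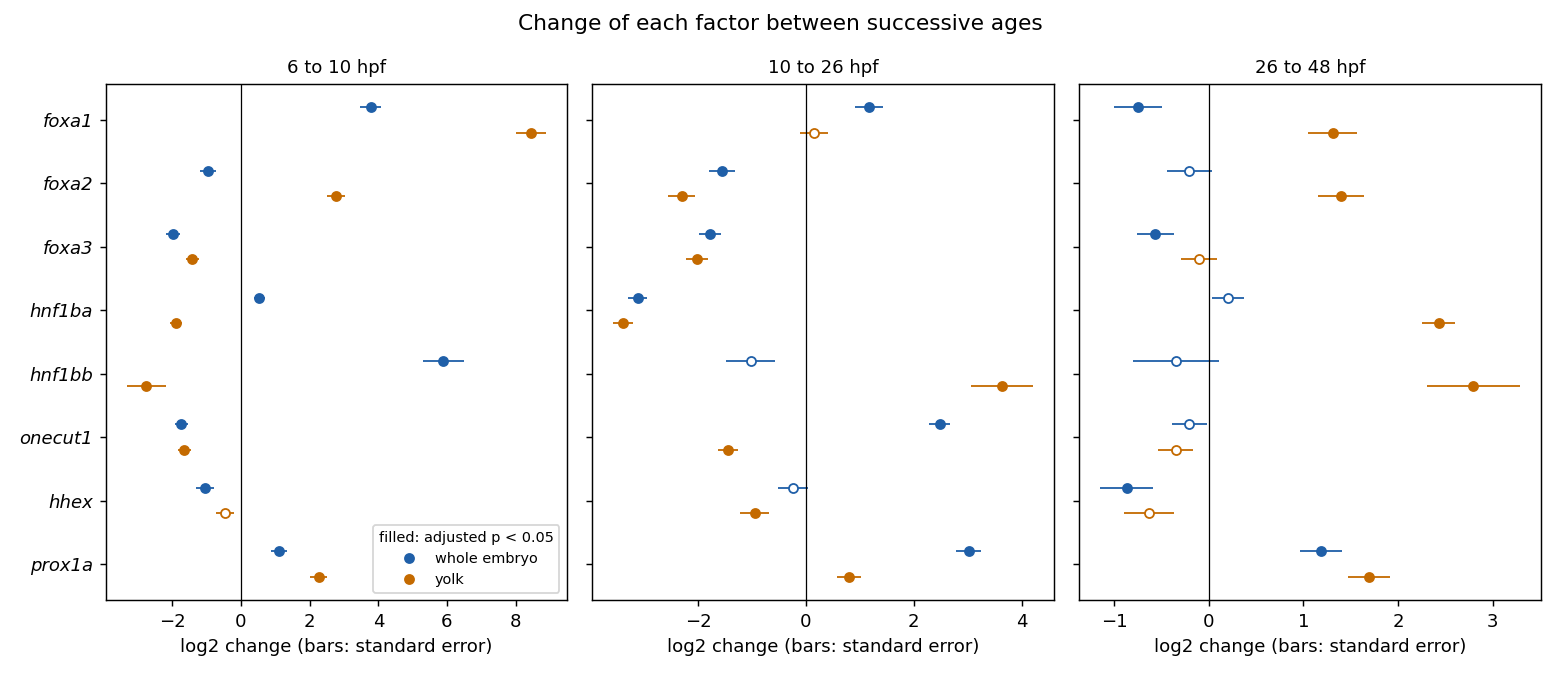
Log2 change of each factor from 6 to 10, 10 to 26 and 26 to 48 hpf in whole embryo (blue) and yolk (orange), with bars of 1 standard error. Filled points have an adjusted p below 0.05. From 26 to 48 hpf the yolk points of foxa1, foxa2, hnf1ba and hnf1bb lie between 1.31 and 2.79, to the right of those of whole embryo.

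Marker lists of several tissues moved in yolk in the same step as those 4 factors. Of 11 pancreas and gut markers, 7 rose in yolk from 26 to 48 hpf and 1 fell, and of 7 liver markers 3 rose and 1 fell. The broader list of 22 tested liver-type secreted and metabolic genes had 3 rising and 3 falling. Of 7 endoderm markers 2 rose and 3 fell, and of 9 syncytial layer markers 2 rose and 4 fell. Of all genes tested 12% rose in that step and 16.1% fell. Insulin (ins) went from 2.56 ± 1.12 to 89.5 ± 19.3 CPM, the trypsin gene prss1 from 0.456 ± 0.122 to 22 ± 3.19, the gut homeobox gene cdx1b from 3.79 ± 0.738 to 87.3 ± 16.6 and the brush border gene vil1 from 0.283 ± 0.212 to 37.1 ± 4.73. At 48 hpf all 4 yolk libraries were above all whole embryos for these 4 genes, with ins 27.1-fold and prss1 33-fold higher. The summed pancreas and gut level nevertheless went down, from 1790 to 3440 CPM at 26 hpf to 621 to 861 at 48 hpf, since fabp2, a fatty acid binding protein gene that dominates the sum, fell 5.82-fold. The summed liver markers were also lower, at 14300 to 20500 against 15100 to 37800 CPM, with overlap. Markers of some outer and other tissues fell in that step, namely 6 of 8 epidermal, 5 of 6 hatching gland, 5 of 10 muscle and 4 of 10 neural. The neural list also had 1 marker rising, and of 12 endothelial and blood markers 4 rose and 3 fell. The epidermal sums of yolk replicates 1 to 4 at 26 hpf were 6980, 3370, 3110 and 379 CPM, against 432 to 495 at 48 hpf. Replicate 4 was thus already below the 48 hpf libraries. The muscle and neural sums at 26 hpf were high in replicate 1 of yolk alone, at 3170 and 569 CPM. The others read 81.8 to 155 and 41.3 to 84.6, and yolk at 48 hpf 96.1 to 147 and 70.9 to 134. Whether the muscle and neural falls hold without replicate 1 was not tested. The part of these tissues in the rise of foxa1, foxa2, hnf1ba and hnf1bb was not tested.

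**Figure D4:**
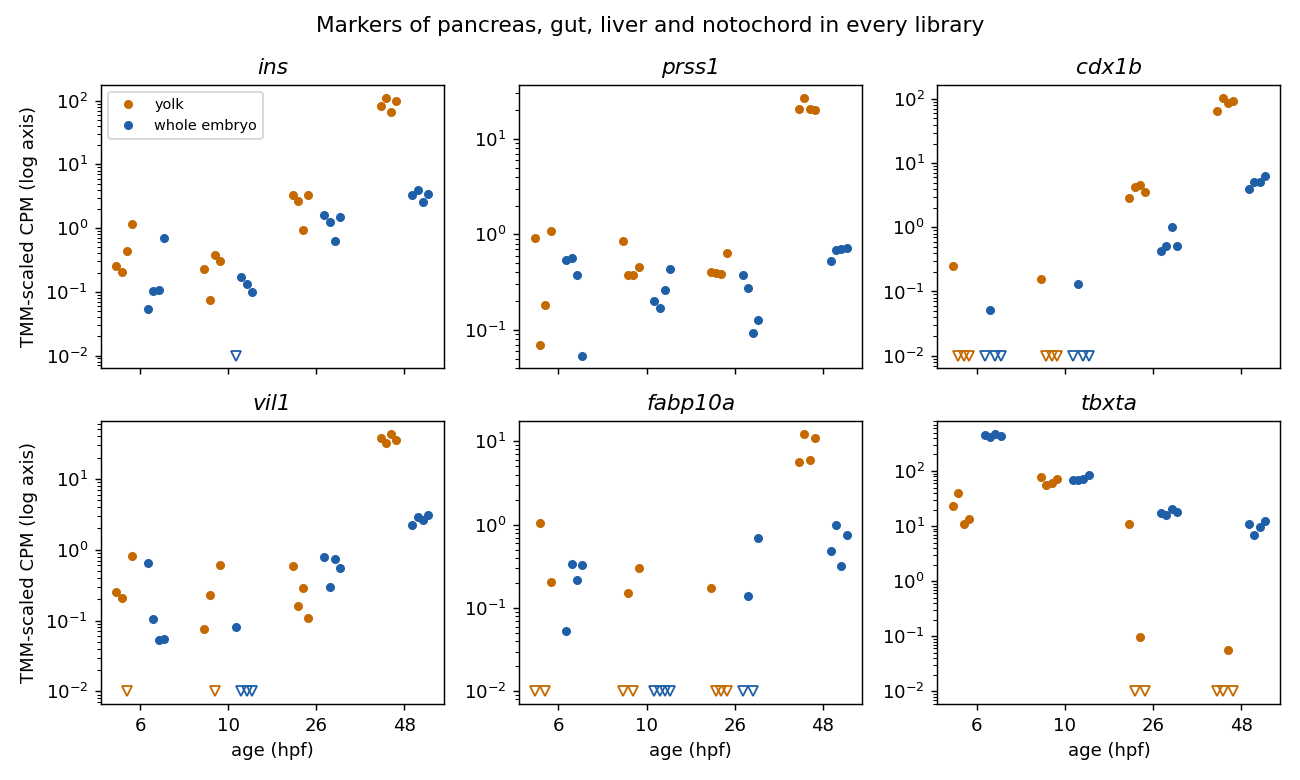
TMM-scaled CPM (log axis) of ins and prss1 (pancreas), cdx1b and vil1 (gut), fabp10a (liver) and tbxta (notochord) by age, 1 point per library, yolk in orange and whole embryo in blue. Open triangles, drawn at 0.01, are libraries with 0 counts, and the 6 genes were picked for display after their values were seen. The first 5 genes are highest in yolk at 48 hpf, whereas tbxta at that age is at 0 counts in 3 of 4 yolk libraries.

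Other tissues also use these factors. Among notochord and floor plate markers 8 of 10 were lower in yolk than in whole embryo at 48 hpf, where 27.5% of all genes were. None were higher, against 22.8% of all genes, and the summed levels were 46.3 to 52.3 against 2050 to 2770 CPM. In yolk 1 of these 10 markers, shha, rose from 26 to 48 hpf, from 7.07 ± 6.86 to 27 ± 0.882 CPM, and 4 fell. The summed list read 1010 CPM in yolk replicate 1 at 26 hpf, against 28.8 to 40.2 in the others. Whether the 4 falls hold without that library was not tested. Of 11 pronephros markers 1 rose in yolk from 26 to 48 hpf and 3 fell, and of 7 posterior hindbrain markers 0 rose and 1 fell. Among all genes 12% rose in that step and 16.1% fell. At 10 hpf 6 of the 7 hindbrain markers were lower in yolk and 0 were higher, where 29.9% and 24.5% of all genes were. Of the 11 pronephros markers 3 were lower and 3 higher. From 6 to 10 hpf 7 of the 7 hindbrain markers rose in whole embryo and 6 in yolk, where 21.2% and 25.8% of all genes rose. The part of hindbrain or pronephros in the hnf1ba and hnf1bb levels was not tested. At 10 hpf, when foxa1 and foxa2 had risen in yolk, sox17, an endoderm factor, had risen as well, from 15.3 ± 2.61 to 61.4 ± 6.56 CPM, and stood 6.53-fold above whole embryo. Of 7 endoderm markers 5 were higher in yolk at 10 hpf and 1 was lower, where 24.5% and 29.9% of all genes were. Some of the 7, such as gata5, are also in the list of syncytial layer markers, so these counts are not specific to endoderm. From 6 to 10 hpf 3 of the 7 rose in yolk and 4 fell, where 25.8% of all genes rose and 23.4% fell. Of 10 notochord and floor plate markers 5 rose and 1 fell in yolk in that step, with sums of 97.6 to 135 CPM from 16.5 to 60.7. At 10 hpf 7 of the 10 were lower in yolk than in whole embryo and 0 were higher. The marker tbxta was at a similar level in both tissues, at 66.7 ± 10.3 CPM in yolk and 73.8 ± 7.03 in whole embryo. The part of endoderm or axial cells in the 10 hpf levels was not tested.

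At 26 hpf the TMM-scaled levels of the members differed across the yolk libraries. In replicate 1, the library with high notochord and muscle markers, foxa3, hnf1ba, onecut1 and hhex were at their lowest of the 4 libraries, and foxa1, foxa2, hnf1bb and prox1a at their highest. Without that library foxa2 and hnf1bb were called lower in yolk at 26 hpf (log2 difference -0.649 and -1.3, adjusted p = 0.021 and 0.031), which made 3 members lower in place of 1. Its removal also brought hhex past the threshold as a fall from 26 to 48 hpf (-0.85, adjusted p = 0.0099) and foxa2 as a larger fall in yolk than in whole embryo from 10 to 26 hpf (-1.07, adjusted p = 0.0084). In replicate 4, whose 8 epidermal markers summed to 379 CPM against 3110 to 6980 in the others, foxa3, hnf1ba, onecut1 and hhex were at their highest and foxa2 and prox1a at their lowest. These ranks depend on the scaling, as the TMM factors of replicates 1 to 4 were 0.9367, 0.7296, 0.6004 and 0.5291. Before scaling, the hnf1ba counts were 340, 552, 422 and 420, with replicate 2 and not replicate 4 highest. For onecut1, replicate 1 had the most counts of the 4 libraries before scaling and not the fewest. The foxa3 counts of 1428, 1850, 2026 and 2272 and the foxa2 counts of 384, 202, 116 and 60 kept the order of the scaled levels. The ranks of the other members before scaling are not given here. The part of embryonic tissue in these libraries was not tested.

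Ratios of related factors within a library do not depend on the scaling of libraries. A ratio between 2 genes also reflects their transcript lengths, so this paragraph gives only its difference between tissues, on the log2 scale. The figure shows the ratios themselves, which were chosen after the values were seen. The hnf1ba to hnf1bb ratio was higher in yolk at 10 hpf by 7.46, or by 6.69 with a pseudocount of 2 in place of 0.5, since hnf1bb was near 0 there. Leaving out yolk replicate 1 or 4 of 10 hpf gave 8.06 or 6.54. It was higher by 1.97 at 26 hpf and by 1.04 at 48 hpf, and at 6 hpf the difference of 0.363 was within the spread (exact permutation p = 0.743, all 8 libraries exchanged). The foxa3 to foxa2 ratio was higher in yolk at every age, by 5.76, 2.57, 3.1 and 1.92. For foxa1 to foxa2 the difference was 0.554 at 10 hpf and 0.753 at 48 hpf, with overlap at 6 and 26 hpf. Each ratio whose groups did not overlap had an exact two-sided permutation p of 0.0286 when all 8 libraries were exchanged, the smallest that 4 against 4 can give, and 0.0381 after Benjamini-Hochberg adjustment over the 12 ratios. Since replicate numbers pair yolk with whole embryo in these data, the exchange was also made within pairs. The exact p of each of these ratios was then 0.125, the smallest that 4 pairs can give, so none passed 0.05.

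**Figure D5:**
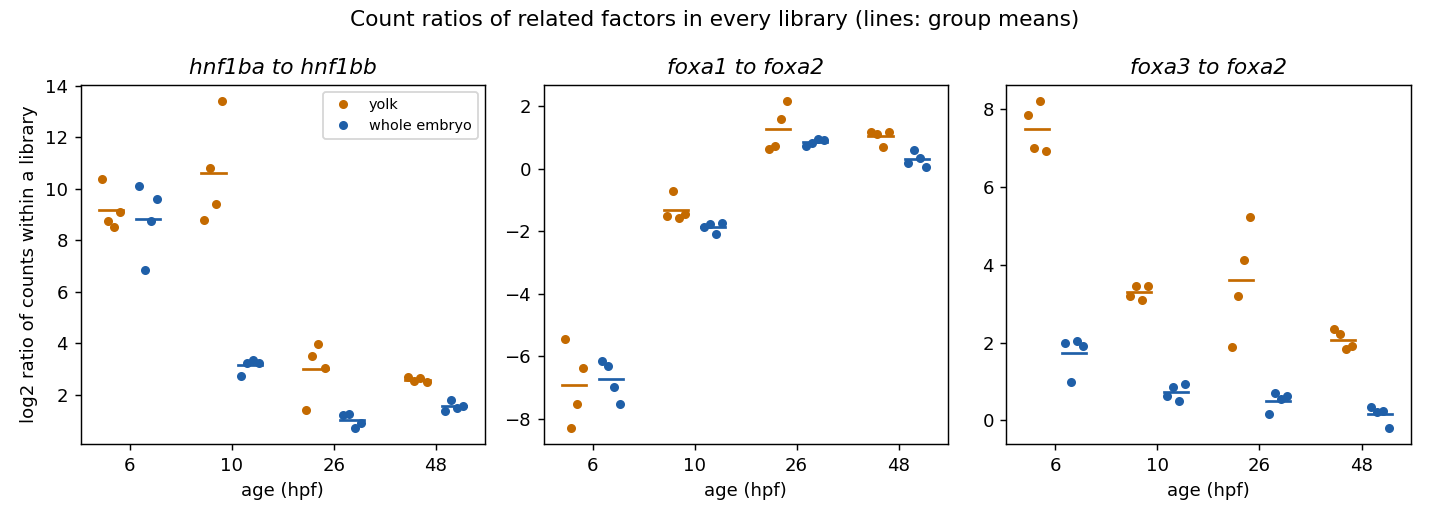
Log2 ratio of counts (pseudocount 0.5) within each library for hnf1ba to hnf1bb, foxa1 to foxa2 and foxa3 to foxa2, by age, with yolk in orange, whole embryo in blue and short lines at the group means. At 10 hpf the hnf1ba to hnf1bb means are 10.6 in yolk and 3.14 in whole embryo.

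Related genes showed which courses were shared. Unlike onecut1, onecut2 stayed higher in yolk at every age (13-, 12.4-, 12- and 5.68-fold), as did onecut3a (8.86-, 14.1-, 11.4- and 5.18-fold). The gene onecutl was called higher in yolk at 6 hpf (11.9-fold) and 10 hpf (3.62-fold) and not called at 26 and 48 hpf, as for onecut1. The prox1a paralog prox1b was lower in yolk at 10, 26 and 48 hpf, and foxa was lower at 6 and 26 hpf.

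Among 21 other hepatic and endodermal factors, which include foxa, onecut2, onecut3a, onecutl and prox1b, 14, 16, 13 and 16 were higher in yolk at the 4 ages and 4, 2, 4 and 3 were lower. Their median log2 differences were 2.66, 3.01, 2.95 and 3.47, beside -0.0459, -0.222, -0.248 and -0.0361 over all genes tested. Of all genes tested 24.8%, 24.5%, 20.6% and 22.8% were higher in yolk at the 4 ages and 27.4%, 29.9%, 25.3% and 27.5% were lower. In yolk 6 of the 21 factors rose from 26 to 48 hpf and 9 fell, against 12% and 16.1% of all genes. The nuclear receptor gene hnf4a went from 72.4 ± 37.3 to 155 ± 4.18 CPM between those ages, while gata6 went from 359 ± 110 to 261 ± 48.1. Of 22 tested liver-type secreted and metabolic genes, many of them known targets of these factors in mammals, 17, 18, 19 and 19 were higher in yolk at 6, 10, 26 and 48 hpf and 0, 0, 1 and 1 were lower. From 6 to 10 hpf 14 of these 22 rose in yolk and 3 fell. Of the members, foxa1, foxa2 and prox1a rose there in that step. The genes foxa3, hnf1ba, hnf1bb and onecut1 fell, and hhex was not called. A link between the members and these 22 genes was not tested. Among all genes 25.8% rose in yolk in that step and 23.4% fell.

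In the order of the 8 group means, the spread from highest to lowest was 1010-fold for foxa1, 106-fold for foxa3 and hnf1bb, 75-fold for hnf1ba, 52-fold for hhex, 42.1-fold for onecut1, 39.4-fold for prox1a and 9.94-fold for foxa2. The values of foxa1 and hnf1bb rest on lowest groups of 4 and 24 counts: leaving out yolk replicate 1 of 6 hpf gave 1700-fold for foxa1, and leaving out whole embryo replicate 2 of 6 hpf gave 232-fold for hnf1bb. Yolk at 6 hpf was the highest group for foxa3, hnf1ba, onecut1 and hhex, yolk at 48 hpf for foxa1 and hnf1bb, whole embryo at 6 hpf for foxa2 and whole embryo at 48 hpf for prox1a. Neighbours in these orders often overlapped, such as foxa1 in whole embryo and yolk at 26 hpf and hhex in yolk at 6 and 10 hpf.

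Other genes followed a similar course over the 8 group means, among 12611 genes reaching 10 CPM in a group. The closest to foxa3 were dpm2 (Pearson r = 0.997), sesn3 (0.989) and ephx5 (0.989), and to hhex emc8 (0.995), lcat (0.991) and slc30a8 (0.991). For prox1a they were plk2a (0.989), pdgfc (0.987) and bicc1b (0.987), for foxa1 tab1 (0.98), ambra1a (0.98) and babam2 (0.979), and for foxa2 ccdc82 (0.976), eda (0.964) and wipf2a (0.942). For onecut1 they were dnmbp (0.974), fam49bb (0.951) and mafk (0.948), for hnf1ba sbds (0.971), rh50 (0.967) and pgap2 (0.961), and for hnf1bb lnpep (0.957), scap (0.957) and hiat1a (0.945). These values describe 8 points that share libraries and scaling, chosen as the highest among many genes.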

How the data were processed

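The authors deposited a table of raw counts, 1 row per gene symbol and 1 column per library. Columns for 32 libraries of whole embryo and yolk were matched through the labels' descriptions. Another 16 of the 48 labelled samples, of body tissue, were not analysed. Per the labels' protocols, TRIzol was used for RNA and a NEBNext Ultra II kit for libraries. The submitters' processing notes name the build GRCz11 and the tools featureCounts 2.0.6, STAR 2.7.10b, Trim Galore 0.6.10 and FastQC 0.12.1. Counting settings, strand and annotation were not stated there. A gene's reads thus cannot be separated from those of an antisense or overlapping gene, and paralogs with near-identical sequence may share reads.

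Of 36109 genes, 2752 had 0 counts in every library and 26268 passed filterByExpr (minimum count 10, minimum total 15). Counts were TMM-scaled, and edgeR 4.0.16 in R 4.3.3 was used for 1 robust quasi-likelihood fit of 8 group means, with 24 residual degrees of freedom and a common dispersion of 0.172. The 13 contrasts were tested two-sided, adjusted by Benjamini-Hochberg over all genes and called below 0.05. A standard error is the log2 difference divided by the root of F. Means are given ± SD over 4 libraries.

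The members and gene lists were chosen with earlier results of these data known. By rule the text may name all members, relatives and other hepatic factors, the 3 genes most like each member, and of each marker list up to 4 called genes with the largest difference and at least 10 CPM, plus the 2 at the highest level. The display of fabp10a lies outside this rule, and results of some related genes are not reported here. Promoter motifs were not searched because no sequence table was used here.

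Libraries with the same replicate number deviated together, over 9034 genes above a log2 CPM of 3. The correlations between yolk and whole embryo were 0.23 to 0.43, 0.19 to 0.38, 0.22 to 0.31 and 0.2 to 0.41 by age, and 0.22 to 0.3 between yolk at 6 and 10 hpf. All exceed 0.1, so the numbers pair these libraries, as a property of the data and not of the labels. Between yolk at 10 and 26 hpf the correlations were -0.11 to -0.016. Each other age step, in yolk or whole embryo, also reached below 0.1. No 2 libraries of a group agreed within sampling noise (chi-square per gene at least 17.6). Whole embryo replicate 2 at 6 hpf was further from the rest of its group (81.1 to 106) than those libraries were from each other (33.4 to 45.7). So was yolk replicate 1 at 26 hpf (154 to 319 against 50.1 to 98.4).

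Alternatives were a replicate block, leaving out each library, a fit of only the contrast's libraries, the Wald test of DESeq2 1.42.0, its size factors, library totals alone and no filter on low counts. Halved counts, the paralog ratios with their paired exchange, and the spread of group means without each library were added after the data were seen. Halving was tried because 78.7% of counts from 1 to 19 were even, against 53% of counts of 1000 or more. In simulated counts for yolk against whole embryo at 6 hpf over 25507 genes, 36 of 50 genes raised 4-fold and 15 of 50 raised 2-fold were recovered.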

Additional observations from a re-analysis of the deposited data

Results flagged for a closer look

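In 6 of 64 sets of 4 libraries (8 genes in 8 groups) 1 library lay far from the other 3, where chance alone marks about 1 set in 20. These were foxa2 in whole embryo replicate 1 at 26 hpf (9.98 CPM, others 8.33 to 8.44), hnf1ba in whole embryo replicate 1 at 6 hpf (73.1 CPM, others 49.5 to 52.9) and hnf1bb in whole embryo replicate 2 at 6 hpf (0.414 CPM, others 0.0535 to 0.108). The other three concern prox1a in whole embryo: replicate 1 at 6 hpf (3.58 CPM, others 1.89 to 2.15), replicate 3 at 26 hpf (44.7 CPM, others 39.6 to 40.2) and replicate 3 at 48 hpf (97.5 CPM, others 91.9 to 92.8).

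The test of the difference between tissues marked 13 changes with age (edgeR, log2 change in yolk minus that in whole embryo). From 6 to 10 hpf these were foxa1 at 4.67, foxa2 at 3.74, prox1a at 1.16, hnf1ba at -2.43 and hnf1bb at -8.66. From 10 to 26 hpf they were hnf1bb at 4.65, foxa1 at -1.02, onecut1 at -3.92 and prox1a at -2.22. From 26 to 48 hpf they were foxa1 at 2.06, foxa2 at 1.6, hnf1ba at 2.23 and hnf1bb at 3.14.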

How the results depend on the processing

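Of 104 member differences, 104 kept their direction and call without a low-count filter and 104 with a replicate block. That block shares 1 effect per replicate number over all ages, so it cannot represent a pairing that differs by age. Paired exchange of the paralog ratios whose groups did not overlap gave p = 0.125 by exact permutation in place of 0.0286. Direction and call were kept by 82 differences with library totals alone, 100 with size factors of DESeq2 and 101 with halved counts. The DESeq2 Wald test kept 97, and a fit of only the contrast's libraries 94 of 103. Under library totals alone, the sign turned for prox1a at 6 hpf (-0.325), foxa2 at 10 hpf (-0.457) and hnf1ba at 26 hpf (-0.197), for yolk from 26 to 48 hpf in foxa3 (0.391) and onecut1 (0.0713), and for the tissue difference in change of onecut1 from 6 to 10 hpf (-0.428) and 26 to 48 hpf (0.363). The fit of only the contrast's libraries turned foxa1 at 26 hpf (0.142), and a pseudocount of 2 turned the foxa1 to foxa2 ratio at 6 hpf (1.02). The cause was not tested.

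Members lower in yolk at 26 hpf numbered 1 as reported, 5 with library totals alone and 2 with halved counts or the Wald test. At 48 hpf there were 0 as reported, 1 with DESeq2 size factors, halved counts or the Wald test, and 2 with library totals alone or only the contrast's libraries. In that last fit 1 member was lower at 6 hpf, since foxa1 was filtered out, 5 fell in whole embryo from 26 to 48 hpf, and 12214 genes were called there in place of 5864. The Wald test called 1 member as falling in yolk from 26 to 48 hpf. With library totals alone 5 members had a lower signed change in yolk than in whole embryo from 10 to 26 hpf, the added 2 being foxa3 (-0.558) and hhex (-1.01).

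Leaving out single libraries gave 1 to 3 members lower in yolk at 26 hpf, 0 to 1 falling in yolk and 0 to 2 falling in whole embryo from 26 to 48 hpf. Signs turned within ranges of -0.17 to 0.321 for prox1a at 6 hpf, -0.0963 to 0.025 for foxa1 at 26 hpf, -0.327 to 0.134 for foxa3 in yolk from 26 to 48 hpf and -0.0503 to 0.303 for the onecut1 difference from 6 to 10 hpf. The 6 hpf ratios ranged from -0.295 to 0.785 (hnf1ba to hnf1bb) and -0.665 to 0.285 (foxa1 to foxa2). Of 64 group levels, 40 moved by more than 1 SD under library totals and 4 under DESeq2 size factors. Depth limits foxa1 and hnf1bb in both tissues at 6 hpf and yolk hnf1bb at 10 hpf. Whole embryo at 6 hpf held 77 foxa1 counts and 24 hnf1bb counts in all.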
